A study of Mus musculus with 10 samples.

Results

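The genes described are 40 endoplasmic reticulum (ER) and ATF4 stress genes, taken by symbol from the 60676 rows of a count table. All 40 were matched by Ensembl identifier, and all 40 passed the filter on low counts in every comparison. They were set in 2 classes by known function: 18 ER chaperones, quality-control factors and stress sensors, and 22 genes of the ATF4 response. The libraries came from 2 mouse tumour lines, B16, a melanoma line, and MC38, a colon adenocarcinoma line. All 10 libraries share a knockdown of syndecan-1 (Sdc1, a cell-surface heparan sulphate proteoglycan) and a stimulation with 10 ng/ml of the cytokine IFNγ (interferon gamma) that lasted 24 h. The 5 groups hold 2 libraries each: B16 knockdown with wild-type Sdc1 put back, B16 knockdown, MC38 knockdown with a c30 mutant of Sdc1, MC38 knockdown with an ect mutant, and MC38 knockdown. What c30 and ect change in the protein is not given in the labels, which name them only as mutants. Nor do they say whether a line is a single clone, or whether paired libraries stem from different cultures. The p-values then measure only the spread between these libraries, which may be technical. Cells with intact Sdc1, unstimulated cells and empty-vector cells are not analysed here.

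The ER folds secreted and membrane proteins, and unfolded protein there is sensed by 3 membrane proteins, IRE1 (gene Ern1), ATF6 (Atf6) and PERK (Eif2ak3). IRE1 splices the Xbp1 messenger RNA and ATF6 is cleaved, after which both products raise chaperone and degradation genes. PERK phosphorylates the translation factor eIF2, as do kinases that sense amino acid shortage, viral RNA or haem, and this favours translation of ATF4, which raises genes of amino acid synthesis, amino acid import and stress signalling. A count per gene shows neither the splicing of Xbp1 nor the translation of Atf4.

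Total counts were 11349447 to 15041133 per library, and CPM below means counts scaled to a total of 1000000. Sdc1 had 71.1 and 56.9 CPM in B16 wild-type libraries, against 40.7 and 43.1 CPM in B16 knockdown libraries. It stood at 97.0 and 99.5 CPM in c30 libraries and at 22.4 and 25.2 CPM in ect libraries, against 24.5 and 29.99 CPM in MC38 knockdown libraries, so the ect libraries overlapped the knockdown. Such a count does not tell the cell's own Sdc1 from a re-expressed form. The 7 melanocyte markers summed to 13499 to 14271 CPM in B16 and to 6.33 to 12.9 CPM in MC38. MC38 is known as a carcinoma line, yet of 6 epithelial markers no more than 2 reached 1 CPM in any of its libraries, while 4 of 4 mesenchymal markers did. The epithelial markers summed to 12.5 and 9.84 CPM in c30 libraries and to 8.52 and 9.04 CPM in ect libraries, against 16.3 and 16.1 CPM in MC38 knockdown libraries. Most of that sum was Cdh1, the E-cadherin gene. Cdh1 had 9.25 and 7.31 CPM with c30 and 5.53 and 6.85 CPM with ect, against 13.7 and 13.9 CPM in the knockdown. The other markers were low and did not all share its direction. Krt19 had 0.793 and 0.783 CPM with c30 and 0.878 and 0.931 CPM with ect, against 0.653 and 0.528 CPM in the knockdown. Krt8 had 1.94 and 1.48 CPM with c30 and 1.49 and 0.997 CPM with ect, against 1.16 and 1.28 CPM in the knockdown. Cldn4 had 1 and 2 counts in the knockdown libraries and 0 in the c30 and ect libraries. The epithelial sum, mainly Cdh1, thus moved with the MC38 groups, and its part in the results below was not tested. The 6 leukocyte markers summed to at most 4.43 CPM in any library. The B16 wild-type libraries stood apart from each other: 0 genes were called in B16 with both, 1295 without wild-type replicate 1 and 326 without wild-type replicate 2, and results that rest on them are given both ways.

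The promoters of the members are shown first, because known targets of XBP1, ATF6 and ATF4 carry short elements there. RefSeq promoter windows (build GRCm38.p6, 250 bases before to 50 after a start site) were found for 36 of the 40 members. They were searched on both strands for the ER stress element ERSE (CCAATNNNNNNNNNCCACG), its shorter form ERSE-II (ATTGG, then N, then CCACG), the element UPRE (TGACGTGG) and the ATF4 element CARE (TGATGNAA). No match of a motif overlapped a match of another in the members. ERSE was found in 6 of the 15 ER members with a window and in 0 of the 21 ATF4 members with a window, while 0.119% of all 32851 windows held it. The 6 were Hspa5, Hsp90b1, Pdia6, Dnajc3, Creld2 and Syvn1. ERSE-II was found in Dnajb11 and Herpud1, and in 0.0365% of all windows. CARE was found in 7 of the 21 ATF4 members (Atf3, Trib3, Chac1, Asns, Slc7a11, Nupr1 and Pycr1), in 1 of the 15 ER members, Herpud1, and in 3.97% of all windows. UPRE was found in 0 members. A match describes letters and is not a measured binding site.

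Stretches of 9 of these windows, all upstream of the start site, follow 5′ to 3′ on the gene's strand, with the matched motif in capitals. The first 4 are ER members that carry ERSE or ERSE-II, and the other 5 are ATF4 members with CARE.
Hspa5, ERSE, chr2:34771995-34772073, plus strand: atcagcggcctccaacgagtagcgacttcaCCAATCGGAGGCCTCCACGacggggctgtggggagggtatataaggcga
Hsp90b1, ERSE on both strands, chr10:86705503-86705686, minus strand: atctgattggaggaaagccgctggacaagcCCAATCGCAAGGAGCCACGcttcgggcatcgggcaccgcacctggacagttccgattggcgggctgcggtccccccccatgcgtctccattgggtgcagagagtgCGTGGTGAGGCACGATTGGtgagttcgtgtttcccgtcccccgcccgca
Syvn1, ERSE, chr19:6046502-6046575, plus strand: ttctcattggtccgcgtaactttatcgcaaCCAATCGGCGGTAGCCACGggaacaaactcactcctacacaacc
Herpud1, CARE and then ERSE-II, chr8:94386287-94386417, plus strand: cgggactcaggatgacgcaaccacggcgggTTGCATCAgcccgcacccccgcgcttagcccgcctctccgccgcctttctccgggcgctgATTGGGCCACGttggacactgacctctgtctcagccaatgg
Chac1, CARE, chr2:119351019-119351086, plus strand: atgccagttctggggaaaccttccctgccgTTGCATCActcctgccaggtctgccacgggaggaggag
Slc7a11, CARE on both strands, chr3:50443623-50443709, minus strand: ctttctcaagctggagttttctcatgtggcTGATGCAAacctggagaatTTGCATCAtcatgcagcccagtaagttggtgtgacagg
Nupr1, CARE, chr7:126625543-126625610, minus strand: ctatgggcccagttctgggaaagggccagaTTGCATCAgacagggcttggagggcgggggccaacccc
Pycr1, CARE, chr11:120643814-120643881, minus strand: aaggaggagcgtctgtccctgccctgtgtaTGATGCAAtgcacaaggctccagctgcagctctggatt
Asns, CARE, chr6:7693210-7693262, minus strand: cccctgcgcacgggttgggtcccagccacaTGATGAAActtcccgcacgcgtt

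Levels of different genes were compared per kb of exon, with exon lengths from GENCODE M21 (GRCm38), an annotation older than the build GRCm39 named in the submitters' processing notes. Hspa5, which encodes the chaperone BiP, had the highest level per kb of the 40 members in both knockdown groups. It reached 295 ± 12.1 CPM per kb in B16 knockdown libraries and 279 ± 3.91 CPM per kb in MC38 knockdown libraries (SD, n = 2 each). Hsp90b1, which encodes the ER chaperone GRP94, followed at 215 ± 0.995 CPM per kb in B16 and 206 ± 0.260 CPM per kb in MC38. Of the ATF4 class, Phgdh, the first enzyme of serine synthesis, was highest in both lines, at 155 ± 2.49 CPM per kb in B16 and 198 ± 1.23 CPM per kb in MC38. Atf4 itself stood at 132 ± 0.633 CPM per kb in B16 and 180 ± 1.23 CPM per kb in MC38. The sensors were low: Ern1 had 5.71 ± 0.296 CPM per kb in B16 and 4.86 ± 0.257 CPM per kb in MC38, and Atf6 had 9.26 ± 0.0238 CPM per kb in B16 and 8.33 ± 0.0402 CPM per kb in MC38. The lowest member per kb was Pycr1, a proline synthesis enzyme, in B16 (1.72 ± 0.232 CPM per kb) and Slc7a11, the cystine importer, in MC38 (0.877 ± 0.0382 CPM per kb). These lengths count every annotated exon of a gene, 13922 bases for Slc7a11. By CPM alone Atf3 (11.3) lay below Slc7a11 (12.2) in the MC38 knockdown, and Cebpb (4.73) below Pycr1 (6.75) in the B16 knockdown.

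**Figure D1:**
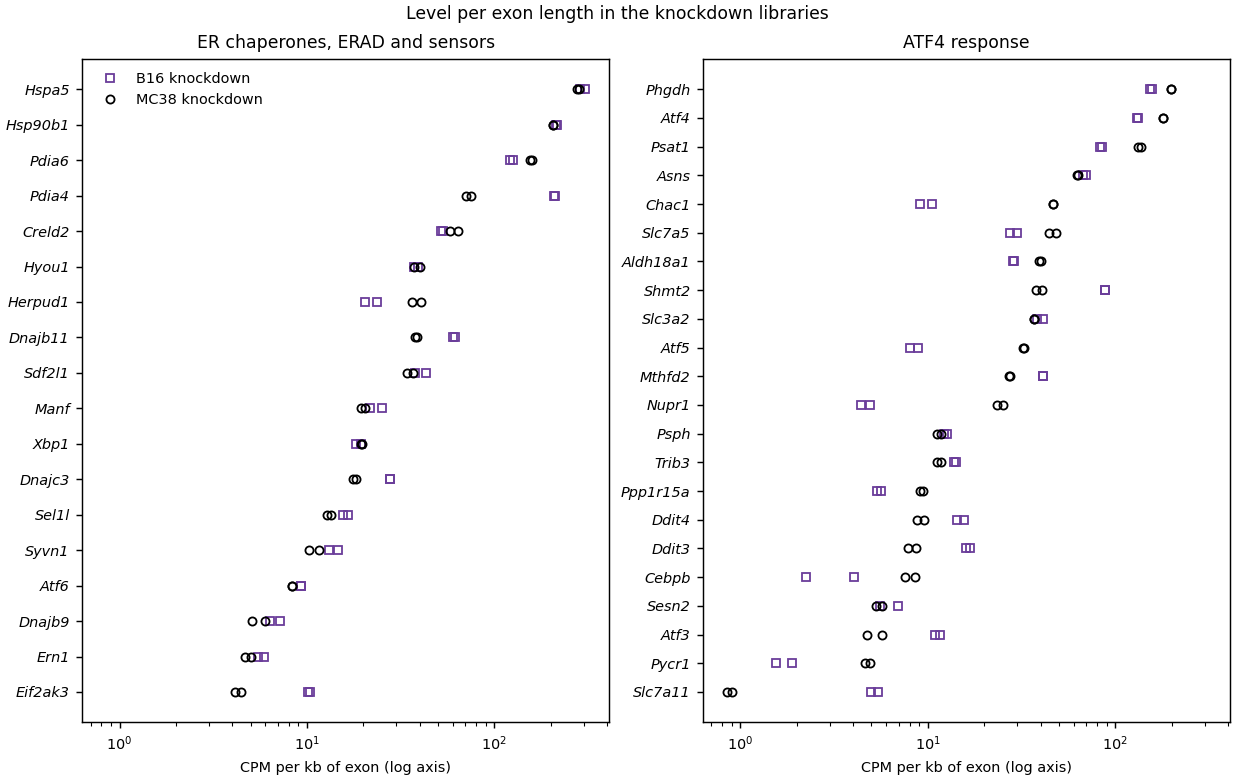
Level per kb of exon (CPM per kb, log axis) of the 18 ER members (left) and 22 ATF4 members (right), with a point for each knockdown library of B16 (squares) and MC38 (circles), ordered by the MC38 mean. Hspa5 leads the ER class and Phgdh the ATF4 class of MC38, and the lines lie farthest apart for Slc7a11, Nupr1, Chac1 and Atf5.

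The first question in MC38 was which members differed once the c30 form was present on top of the knockdown. With c30, the transcription factor gene Xbp1, the degradation genes Herpud1 and Sel1l, the chaperone gene Hspa5 and the ATF4 targets Chac1 and Ddit4 were lower, as was Atf5, the gene of a transcription factor related to ATF4. The folate enzyme gene Mthfd2 was higher. Of the 18 ER members 4 were lower and 0 higher, and of the 22 ATF4 members 3 were lower and 1 higher (edgeR adjusted p under 0.05). Over all 15031 genes tested, 7.75% were called (4.45% lower and 3.3% higher). The median log2 fold change was -0.01 in the ER class and -0.05 in the ATF4 class, beside 0.00 over all genes. In bulk libraries such as these, fewer cells with a transcript and less of it per cell cannot be told apart.

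Herpud1 (ENSMUSG00000031770.17), whose product helps to deliver misfolded proteins for degradation, had 69.3 and 68.3 CPM in c30 libraries, against 85.2 and 94.6 CPM in knockdown libraries. Its log2 fold change was -0.38 (SE 0.067, adjusted p = 1.86e-05 by edgeR). Both c30 libraries lay below both knockdown libraries. Hspa5 (ENSMUSG00000026864.14) had 1038 and 1029 CPM with c30, against 1191 and 1167 CPM in the knockdown, a log2 fold change of -0.19 (SE 0.038, adjusted p = 0.000282 by edgeR). The libraries of the 2 groups did not overlap. Xbp1 (ENSMUSG00000020484.20), which encodes the factor made by IRE1 splicing, had 49.4 and 53.3 CPM with c30, against 62.8 and 63.9 CPM in the knockdown (log2 fold change -0.30, SE 0.079, adjusted p = 0.00837 by edgeR). Sel1l, whose product holds the ubiquitin ligase of ER degradation in place, had 98.9 and 97.5 CPM with c30, against 109 and 114 CPM in the knockdown (log2 fold change -0.18, SE 0.059, adjusted p = 0.04 by edgeR). Both genes were lower in each c30 library than in either knockdown library. The other 14 ER members had log2 fold changes of -0.22 to 0.21 and did not pass. Among them the sensor genes had -0.01 (Atf6), 0.21 (Ern1) and -0.21 (Eif2ak3).

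In the ATF4 class Chac1 (ENSMUSG00000027313.4), which encodes an enzyme that breaks down glutathione, had the smallest adjusted p with c30. It had 56.8 and 54.1 CPM in c30 libraries, against 76.5 and 75.8 CPM in knockdown libraries (log2 fold change -0.45, SE 0.073, adjusted p = 2.67e-06 by edgeR). Atf5 (ENSMUSG00000038539.16) had 49.6 and 41.9 CPM with c30, against 64.7 and 64.5 CPM in the knockdown (log2 fold change -0.49, SE 0.081, adjusted p = 4.95e-06 by edgeR). For both genes the groups were apart, and the c30 libraries differed from each other more for Atf5. Ddit4, whose product restrains the growth kinase complex mTORC1, had 11.1 and 11.8 CPM with c30, against 15.3 and 16.7 CPM in the knockdown (log2 fold change -0.48, SE 0.152, adjusted p = 0.0319 by edgeR). Mthfd2, a mitochondrial folate enzyme of one-carbon metabolism, had 107 and 109 CPM with c30, against 94.2 and 95.9 CPM in the knockdown (log2 fold change 0.19, SE 0.059, adjusted p = 0.0283 by edgeR). The other 18 ATF4 members had log2 fold changes of -0.43 to 0.13 and did not pass. Slc7a11 was at the low end with -0.43 (SE 0.169, adjusted p = 0.107 by edgeR), and Atf4 had -0.08 (SE 0.045), Ddit3 0.06 (SE 0.144) and Asns -0.03 (SE 0.053). Serine synthesis genes did not pass: Psat1 had 0.04 and Phgdh 0.05.

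The count of 8 called members with c30 stood beside 1165 of all genes. It was 4 with DESeq2, beside 513 of all genes, and 3 with all 10 libraries in 1 fit, beside 254 of all genes. Both counts were also lower when any c30 or knockdown library was left out. Herpud1, Atf5 and Chac1 were the members called under each of the 9 alternatives run, while Hspa5 lost its call under 1, Xbp1 under 4, Sel1l under 5, Ddit4 under 6 and Mthfd2 under 7 of them.

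**Figure D2:**
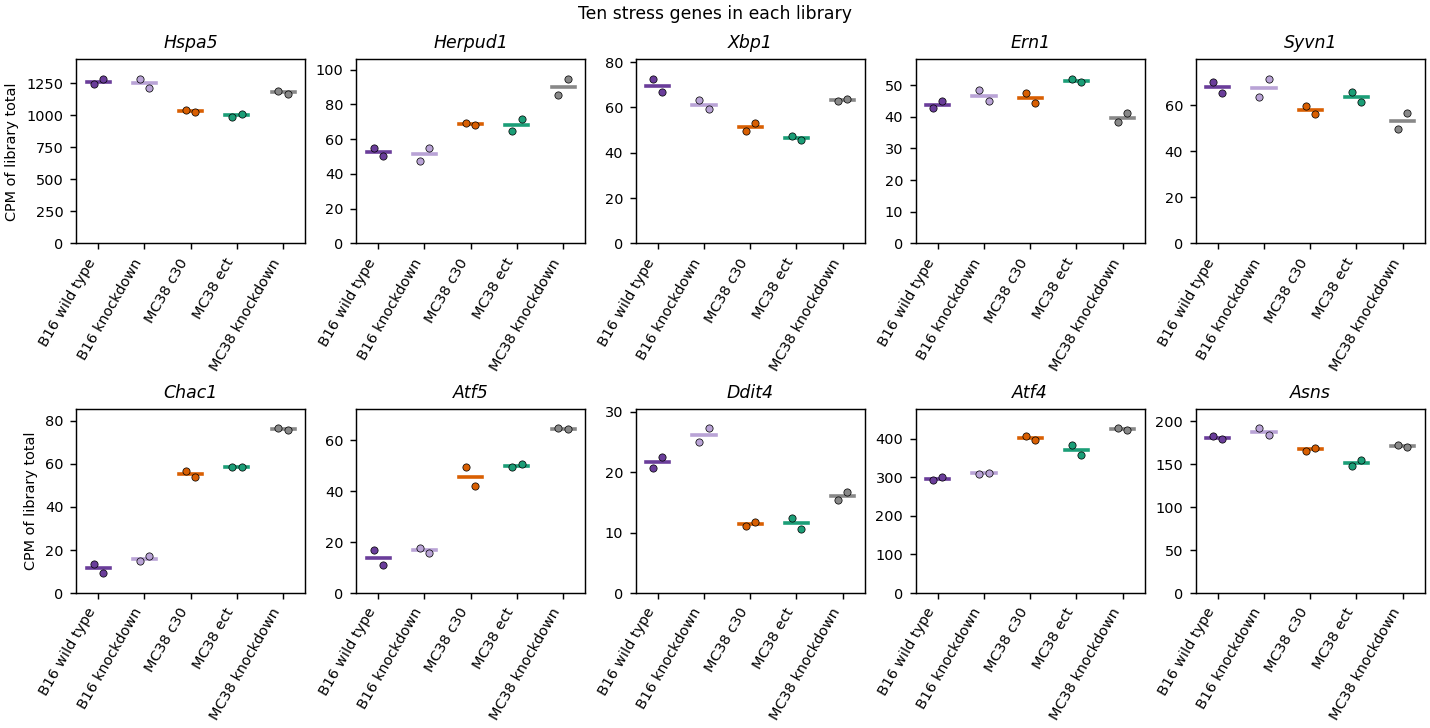
Level of 10 members in every library (points, CPM of the library total, axes from 0), with a bar at each group's mean of 2 libraries. Hspa5, Herpud1, Xbp1, Chac1, Atf5 and Ddit4 lie lower in the c30 and ect libraries than in the MC38 knockdown libraries. Ern1 lies higher in the c30 and ect libraries, and was called with ect but not with c30.

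The ect form was set against the same knockdown libraries. Hspa5, Herpud1 and Xbp1 were lower with ect, and 2 genes of the ER class were higher: Ern1, the IRE1 sensor gene, and Syvn1, which encodes the ubiquitin ligase HRD1. In the ATF4 class, Atf4 itself, Atf5, Chac1, Ddit4 and the asparagine synthetase gene Asns were lower. Of the 18 ER members 3 were lower and 2 higher, and of the 22 ATF4 members 5 were lower and 0 higher. Over all genes tested 8.16% were called (4.61% lower and 3.55% higher). The median log2 fold change was -0.07 in the ER class and -0.05 in the ATF4 class, beside 0.00 over all genes. The c30 and ect comparisons share the knockdown libraries, so their values stand side by side and are not independent.

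Xbp1 had 47.3 and 45.5 CPM in ect libraries, against 62.8 and 63.9 CPM in knockdown libraries (log2 fold change -0.44, SE 0.079, adjusted p = 3.29e-05 by edgeR). Ern1 (ENSMUSG00000020715.10) had 52.0 and 50.9 CPM in ect libraries, against 38.3 and 41.2 CPM in knockdown libraries (log2 fold change 0.38, SE 0.086, adjusted p = 0.00106 by edgeR). The ect libraries thus lay below the knockdown for the substrate of IRE1 and above it for IRE1, with no overlap for either gene. Hspa5 had 986 and 1010 CPM with ect, against 1191 and 1167 CPM in the knockdown (log2 fold change -0.23, SE 0.038, adjusted p = 4.67e-06 by edgeR). Herpud1 had 64.8 and 71.5 CPM with ect, against 85.2 and 94.6 CPM in the knockdown (log2 fold change -0.38, SE 0.066, adjusted p = 1.20e-05 by edgeR). Syvn1 had 65.9 and 61.5 CPM with ect, against 49.7 and 56.4 CPM in the knockdown (log2 fold change 0.27, SE 0.077, adjusted p = 0.0126 by edgeR). Of the 6 members with ERSE, Hspa5 was called lower and Syvn1 higher, and the other 4 did not pass. The call of Syvn1 was lost under 4 of the 9 alternatives (DESeq2, without knockdown replicate 1, without ect replicate 1, and all 10 libraries in 1 fit), with an adjusted p of up to 0.29 by these tests. The 13 ER members that did not pass had log2 fold changes of -0.16 to 0.07, among them Atf6 at 0.05 and Eif2ak3 at -0.16.

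Chac1 had 58.7 and 58.5 CPM with ect, against 76.5 and 75.8 CPM in the knockdown (log2 fold change -0.37, SE 0.071, adjusted p = 0.000109 by edgeR). Atf5 had 49.5 and 50.5 CPM with ect, against 64.7 and 64.5 CPM in the knockdown (log2 fold change -0.36, SE 0.079, adjusted p = 0.000868 by edgeR). For both genes the ect libraries agreed closely and lay below the knockdown. Atf4 (ENSMUSG00000042406.9) had 383 and 357 CPM with ect, against 426 and 422 CPM in the knockdown (log2 fold change -0.19, SE 0.045, adjusted p = 0.00244 by edgeR). Ddit4 had 12.5 and 10.6 CPM with ect, against 15.3 and 16.7 CPM in the knockdown (log2 fold change -0.47, SE 0.149, adjusted p = 0.0302 by edgeR). Asns had 149 and 155 CPM with ect, against 173 and 170 CPM in the knockdown (log2 fold change -0.16, SE 0.053, adjusted p = 0.0366 by edgeR). All 3 genes were lower in each ect library than in either knockdown library. The 17 ATF4 members that did not pass had log2 fold changes of -0.44 to 0.22. They held Slc7a11 (-0.44, SE 0.166, adjusted p = 0.092 by edgeR), Ddit3 (0.11, SE 0.141), Trib3, a kinase-like brake on AKT and ATF4 (-0.06, SE 0.113), and Psat1 (0.12, SE 0.041, adjusted p = 0.0563 by edgeR). Of the 40 members 10 were called with ect, beside 1227 of all genes. With all 10 libraries in 1 fit 4 were called, beside 249 of all genes. Hspa5, Herpud1, Xbp1 and Ern1 were called under each of the 9 alternatives, whereas Ddit4 and Asns each lost the call under 5. Atf4, Atf5 and Chac1 lost it with all 10 libraries in 1 fit, and Atf4 also without ect replicate 2.

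**Figure D3:**
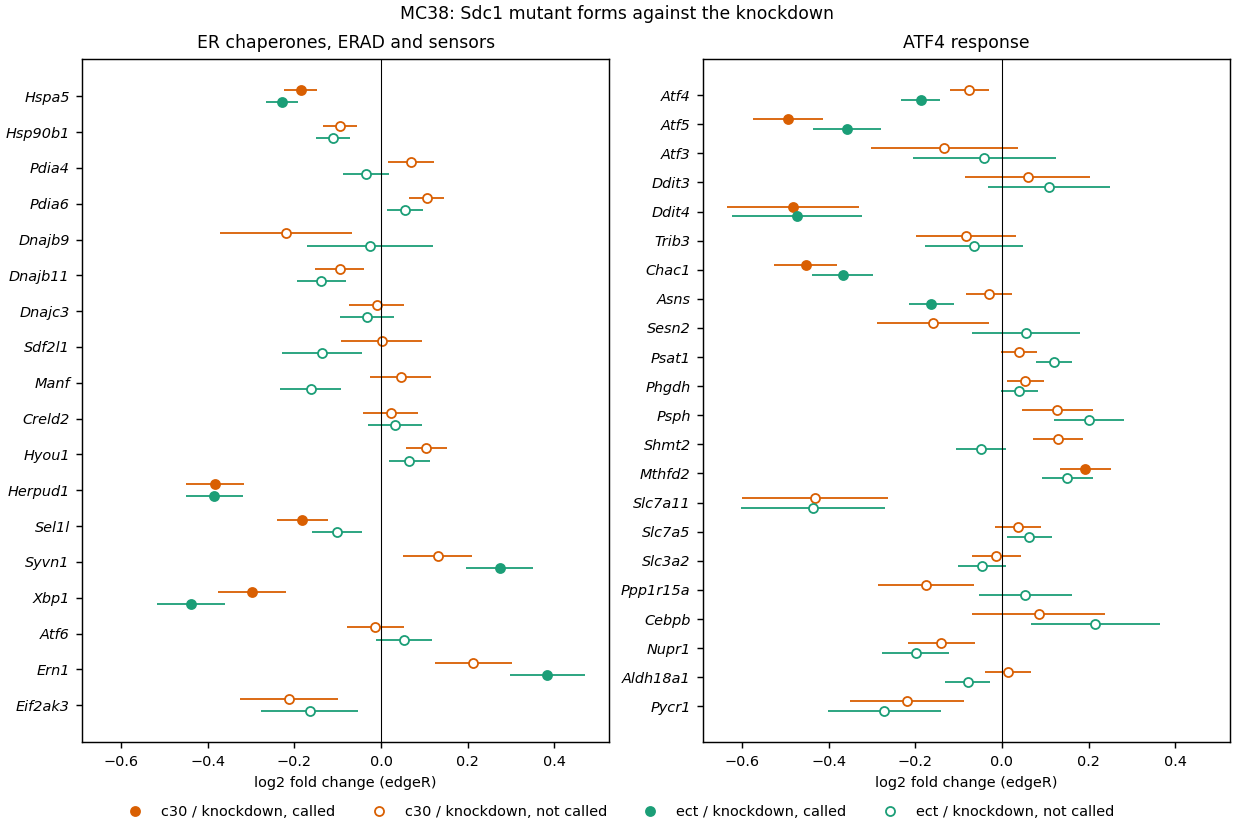
Log2 fold change of each member against the MC38 knockdown (edgeR, bars are 1 SE, 2 libraries per group) for c30 (orange) and ect (green), with filled points for members at an adjusted p under 0.05. Herpud1, Xbp1, Hspa5, Atf5, Chac1 and Ddit4 are filled and to the left for both forms, and Ern1 and Syvn1 are filled and to the right for ect.

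When c30 was set against ect directly, 0 of the 40 members passed with edgeR and 0 with DESeq2. Over all genes 0.299% were called. At an unadjusted p under 0.05 there were 1 ER member and 4 ATF4 members, where 8.72% of all genes had such a p. The smallest adjusted p belonged to Shmt2, a mitochondrial enzyme that passes a carbon from serine to folate, with 128 and 137 CPM in c30 libraries, against 111 and 122 CPM in ect libraries (log2 fold change 0.18, SE 0.059, adjusted p = 0.233 by edgeR). Manf, a secreted ER stress protein, had 0.21 (SE 0.072, adjusted p = 0.272 by edgeR). Ern1, called with ect and not with c30, had a difference of -0.17 between the forms (SE 0.086, adjusted p = 0.573 by edgeR), and Xbp1 had 0.14. A difference between the forms in these genes was therefore not detected.

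Other genes of the pathways were counted in the same way in MC38. Of 35 other tested ER folding and degradation genes, 4 were lower and 1 higher with c30 and 8 were lower and 0 higher with ect. The calreticulin gene Calr had 977 and 999 CPM with ect, against 1107 and 1174 CPM in the knockdown (log2 fold change -0.19, SE 0.038, adjusted p = 0.000143 by edgeR). Pdia3, a disulphide isomerase that works with calreticulin, had -0.17 with ect (SE 0.039) and -0.13 with c30 (SE 0.039), and Uggt1, the sensor of misfolded glycoproteins, had -0.17 with ect (SE 0.044). Mbtps1, the protease that cleaves ATF6, had -0.16 with c30 (SE 0.047), and Hm13, a signal peptide peptidase, was higher with c30 at 0.25 (SE 0.063). Of 30 other tested ATF4 amino acid and tRNA charging genes, 5 were lower and 0 higher with c30 and 3 were lower and 0 higher with ect. Beside 7.75% of all genes called with c30 and 8.16% with ect, the ect count of this list is near the background. The glycine transporter gene Slc6a9 had -0.35 with c30 (SE 0.091) and -0.32 with ect (SE 0.0895). Aldh1l2, a mitochondrial folate enzyme, had -0.37 with ect (SE 0.085), and the tRNA charging genes Cars1 (-0.20 with ect, SE 0.052) and Nars1 (-0.16 with c30, SE 0.043) were lower. Vldlr, a lipoprotein receptor gene and ATF4 target, had -0.51 with c30 (SE 0.106). Gdf15, a stress-induced cytokine gene picked after its values were seen, had the lowest log2 fold change of the list with c30 (-1.83, SE 0.616, adjusted p = 0.0329 by edgeR) from few counts, 5 and 6 in c30 libraries, against 22 and 25 in knockdown libraries. The 5 genes of eIF2, its other kinases and their brake did not pass, with log2 fold changes of -0.13 to 0.02 with c30 and -0.10 to 0.03 with ect.

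The knockdown libraries of B16 and MC38 were compared to ask how the members stand in the 2 lines under the same knockdown and cytokine. Line, handling and any difference in the response to IFNγ cannot be told apart here. The ATF4 class split. The cystine importer Slc7a11, the folate enzymes Shmt2 and Mthfd2 and the stress factors Atf3 and Ddit3 were higher in B16, and Nupr1, Chac1, Atf5, Pycr1 and Cebpb were lower in B16. Among ER genes the disulphide isomerase Pdia4 and the PERK gene Eif2ak3 were higher in B16 by more than 2-fold, while Hspa5 and Hsp90b1 did not pass. Of 18 ER members 9 were higher and 2 lower, and of 22 ATF4 members 8 were higher and 11 lower. Since 68.2% of all 16877 genes tested were called between the lines (33.8% higher in B16 and 34.3% lower), the counts alone say little about the members, and their sizes are given.

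Pdia4 (ENSMUSG00000025823.10) had 504 and 496 CPM in B16 knockdown libraries, against 181 and 170 CPM in MC38 knockdown libraries (log2 fold change 1.55, SE 0.066, adjusted p = 1.05e-17 by edgeR). Eif2ak3 (ENSMUSG00000031668.15) had 62.4 and 61.4 CPM in B16, against 26.9 and 24.9 CPM in MC38 (log2 fold change 1.30, SE 0.101, adjusted p = 6.04e-12 by edgeR). Both groups were tight and far apart for these genes. The cochaperone Dnajb11 had 196 and 199 CPM in B16, against 122 and 126 CPM in MC38 (log2 fold change 0.71, SE 0.065, adjusted p = 1.77e-10 by edgeR). Dnajc3, an inhibitor of PERK and cochaperone of BiP, had 143 and 142 CPM in B16, against 94.1 and 90.7 CPM in MC38 (log2 fold change 0.67, SE 0.075, adjusted p = 9.05e-09 by edgeR). Herpud1 had 47.4 and 55.1 CPM in B16, against 85.2 and 94.6 CPM in MC38 (log2 fold change -0.77, SE 0.089, adjusted p = 1.45e-08 by edgeR). Herpud1 was thus the ER member farthest below MC38, and the other lower one, Pdia6, had -0.29 (SE 0.062). Sel1l had 141 and 134 CPM in B16, against 109 and 114 CPM in MC38 (log2 fold change 0.34, SE 0.069, adjusted p = 9.08e-05 by edgeR). Syvn1 (0.39, SE 0.090), Manf (0.27, SE 0.086), Ern1 (0.28, SE 0.097) and Atf6 (0.19, SE 0.074) were also higher in B16, and the last 3 lost their calls under some alternatives. Xbp1 had 63.1 and 59.3 CPM in B16, against 62.8 and 63.9 CPM in MC38, and did not pass (log2 fold change -0.01, SE 0.088). The 7 ER members that did not pass lay between -0.17 and 0.33. With only the 4 knockdown libraries in the fit, 35 members in place of 30 passed, beside 11557 of all genes in place of 11504. The added members were Hspa5 (0.11), Dnajb9 (0.32), Sdf2l1 (0.22), Creld2 (-0.18) and Slc3a2 (0.14).

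Slc7a11 (ENSMUSG00000027737.11) had the largest difference of the 40 members. It had 75.0 and 69.2 CPM in B16 knockdown libraries, against 11.8 and 12.6 CPM in MC38 knockdown libraries, 6.08-fold higher (log2 fold change 2.60, SE 0.117, adjusted p = 1.89e-17 by edgeR). Slc3a2, the heavy chain with which Slc7a11 forms the cystine and glutamate exchanger, had 135 and 145 CPM in B16, against 130 and 129 CPM in MC38, and did not pass. Chac1 had 14.9 and 17.2 CPM in B16, against 76.5 and 75.8 CPM in MC38 (log2 fold change -2.21, SE 0.122, adjusted p = 2.43e-15 by edgeR). The importer of the precursor of glutathione was therefore higher in B16 and the enzyme that degrades glutathione lower, each without overlap between the lines.

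Nupr1 (ENSMUSG00000030717.10), a small stress-induced chromatin protein, had 10.996 and 12.4 CPM in B16, against 58.5 and 63.4 CPM in MC38 (log2 fold change -2.34, SE 0.133, adjusted p = 2.95e-15 by edgeR). Shmt2 had 275 and 274 CPM in B16, against 117 and 126 CPM in MC38 (log2 fold change 1.21, SE 0.079, adjusted p = 2.56e-13 by edgeR). Atf5 had 17.6 and 15.9 CPM in B16, against 64.7 and 64.5 CPM in MC38 (log2 fold change -1.90, SE 0.133, adjusted p = 7.26e-13 by edgeR). Each of the 3 separated the lines in all 4 libraries. Psat1, a serine synthesis enzyme, had 351 and 360 CPM in B16, against 582 and 564 CPM in MC38 (log2 fold change -0.65, SE 0.063, adjusted p = 5.69e-10 by edgeR). The route by which cells make serine was lower in B16 at Psat1 and Phgdh (-0.32, SE 0.088). Psph, which completes serine synthesis, did not pass (0.15). Shmt2, a mitochondrial enzyme that uses serine, and the mitochondrial folate enzyme Mthfd2 (0.64, SE 0.071) were higher. Proline synthesis was lower at both members, Aldh18a1 (-0.42, SE 0.073) and Pycr1 (-1.44, SE 0.165).

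Of the factors, Atf4 was lower in B16 (-0.41, SE 0.062), as were Cebpb (-1.33, SE 0.302) and Ppp1r15a, the phosphatase subunit that restores eIF2 (-0.71, SE 0.128). Atf3 (1.14, SE 0.156), the CHOP gene Ddit3 (1.03, SE 0.131), Ddit4 (0.74, SE 0.135), Trib3 (0.33, SE 0.119) and Asns (0.17, SE 0.065) were higher, and the leucine importer Slc7a5 was lower (-0.65, SE 0.100). Trib3 and Asns lost their calls under some alternatives. Cebpb was the least sampled member here, with 44 counts in B16 knockdown replicate 1. The 8 members with CARE in their windows, the sequences of 6 of which are shown above, were 4 higher and 4 lower in B16. Ddit3 has a second, shorter Ensembl gene within its exons, which was at 0 in all 10 libraries, so its own count is uncertain. In GENCODE M21 a gene on the opposite strand covers 20.7% of the exons of Cebpb (Tmem189), 10.4% of those of Psph and 10.3% of those of Hsp90b1, so their counts are uncertain without a stated strand setting.

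**Figure D4:**
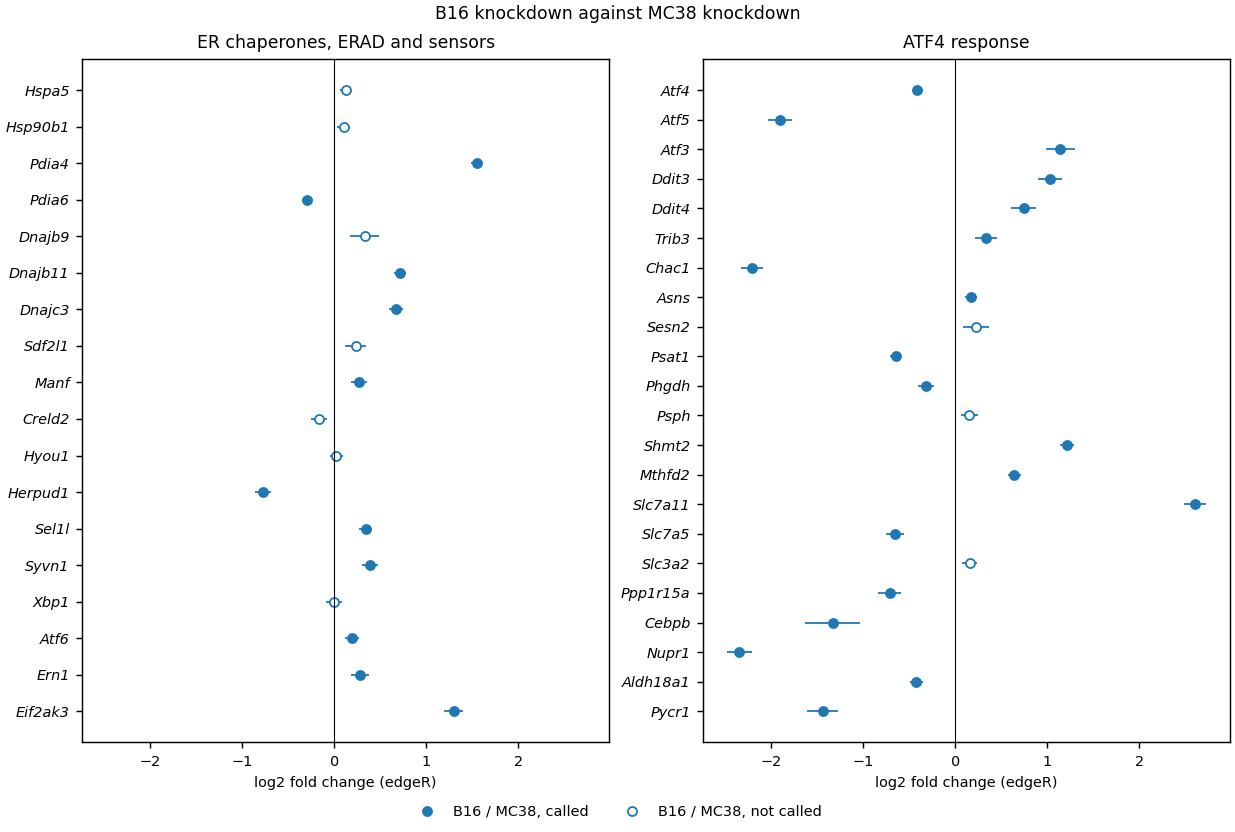
Log2 fold change of each member between the B16 and MC38 knockdown libraries (edgeR, bars are 1 SE, 2 libraries per group), with filled points for an adjusted p under 0.05 and positive values higher in B16. The ATF4 members spread from Nupr1 at -2.34 to Slc7a11 at 2.60, and the ER members from Herpud1 at -0.77 to Pdia4 at 1.55.

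Among the other genes of the pathways, 16 of 35 ER folding and degradation genes were higher in B16 and 9 lower. Beside this count and those of the lists below, 33.8% of all genes tested were higher in B16 and 34.3% lower. Ero1a, the oxidase that drives disulphide formation, had 520 and 561 CPM in B16, against 68.5 and 64.1 CPM in MC38 (log2 fold change 3.07, SE 0.075). Edem1, a degradation lectin, had 1.19 (SE 0.065), and Mbtps1 had -1.38 (SE 0.067). Of 31 tested ATF4 amino acid and tRNA charging genes, 8 were higher and 18 lower. Aars1, the alanine tRNA ligase gene, had 315 and 337 CPM in B16, against 887 and 931 CPM in MC38 (log2 fold change -1.44, SE 0.068). Vldlr had 0 and 3 counts in the B16 knockdown libraries, against 35.6 and 33.5 CPM in MC38. Stc2, a secreted glycoprotein gene, had 0 counts in both B16 knockdown libraries, against 20.3 and 23.1 CPM in MC38, and was at least 88.5-fold lower, with 3 counts per library as the floor. Of the 5 genes of eIF2, its other kinases and their brake, 4 were higher and 1 lower in B16. Eif2ak2, the kinase PKR and itself an interferon-induced gene, had 314 and 299 CPM in B16, against 119.7 and 119.9 CPM in MC38 (log2 fold change 1.40, SE 0.081). Ppp1r15b, a phosphatase subunit for eIF2 (0.49, SE 0.068), and Eif2s1, its alpha subunit (0.36, SE 0.073), were higher too.

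In B16 the question was which members differed between the libraries with wild-type Sdc1 put back and the knockdown libraries. Sdc1 itself was 0.64 higher on the log2 scale with wild type and did not pass by edgeR. By edgeR 0 of the 40 members passed, as did 0 of all 14336 genes tested (0%), while DESeq2 called 0 members and 11 genes in all. Over all genes 791 (5.52%) had an unadjusted p under 0.05. At an unadjusted p under 0.05 there were 0 ER members and 3 ATF4 members, all lower. The fold changes were positive for 14 of 18 ER members and negative for 21 of 22 ATF4 members, with medians of 0.04 and -0.15 beside 0.00 over all genes. This split depended on the library: 13 of 22 ATF4 members were negative without wild-type replicate 2 (median -0.02) and 22 of 22 without wild-type replicate 1 (median -0.25), while 13 and 10 of 18 ER members were positive in the same fits. No difference between the classes was tested. The 3 members with an unadjusted p under 0.05 were Slc7a11, Slc3a2 and Chac1. Slc7a11 had 56.6 and 59.0 CPM in wild-type libraries, against 75.0 and 69.2 CPM in knockdown libraries (log2 fold change -0.29, SE 0.099, adjusted p = 0.877 by edgeR). Slc3a2 had 126 and 103 CPM with wild type, against 135 and 145 CPM in the knockdown (log2 fold change -0.26, SE 0.102, adjusted p = 0.877 by edgeR). Both subunits of the cystine exchanger lay lower in each wild-type library than in either knockdown library, without passing. How many of all genes were separated in this way was not counted, so the shared direction is a description only. Chac1 had 13.7 and 9.26 CPM with wild type, against 14.9 and 17.2 CPM in the knockdown (log2 fold change -0.46, SE 0.198, adjusted p = 0.891 by edgeR). Xbp1 had 72.6 and 66.7 CPM with wild type, against 63.1 and 59.3 CPM in the knockdown (log2 fold change 0.21, SE 0.099, adjusted p = 0.891 by edgeR), and Hspa5 had 0.04.

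The wild-type libraries differed from each other. The 22 ATF4 members summed to 2319 CPM in wild-type replicate 1 and 2019 CPM in wild-type replicate 2, against 2328 and 2367 CPM in knockdown libraries, so the lower sum rested on replicate 2. The 18 ER members summed to 4449 and 4552 CPM in wild-type libraries, against 4474 and 4365 CPM in knockdown libraries. Without wild-type replicate 1, edgeR called 7 members among 1295 genes, which were Hsp90b1 as higher and Atf5, Chac1, Phgdh, Slc3a2, Cebpb and Aldh18a1 as lower. Without wild-type replicate 2 it called 2 among 326 genes, Slc7a11 as lower and Slc7a5 as higher. In these fits the lone library of the group is assumed to vary like the other group, and no member was called in both.

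**Figure D5:**
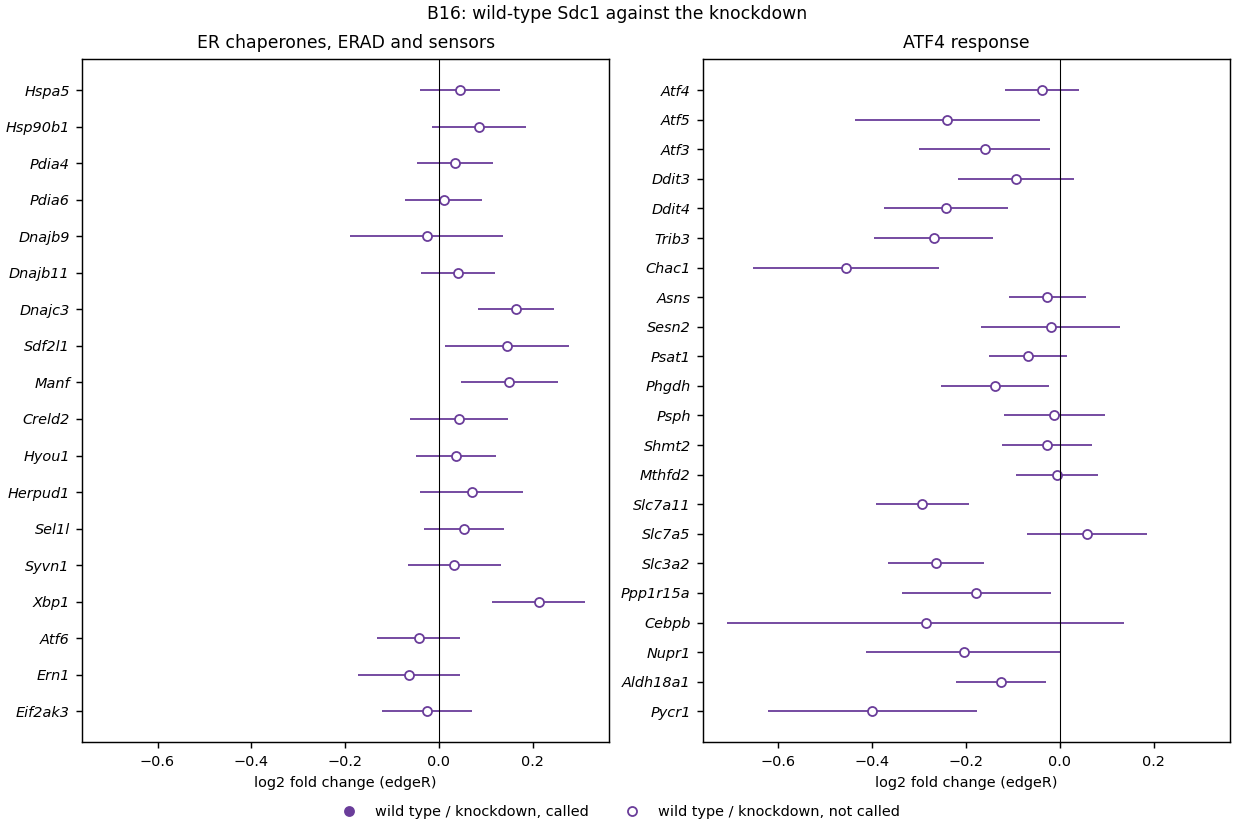
Log2 fold change of each member between wild-type and knockdown libraries of B16 (edgeR, bars are 1 SE, 2 libraries per group), with open points because no member passed. Of the ATF4 members 21 of 22 lie left of 0, a count that was 13 of 22 without wild-type replicate 2.

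Whether the effect of the added form differed between the lines was tested in 1 fit of all 10 libraries. The forms differ as well as the lines, so the 2 cannot be told apart. Xbp1 was the member that passed: its effect in B16 with wild type was 0.65 higher on the log2 scale than its effect in MC38 with ect (SE 0.125, adjusted p = 0.0137 by edgeR; 0.486% of all genes called, 0.284% higher and 0.201% lower). Against the c30 effect the difference for Xbp1 was 0.51 (SE 0.125, adjusted p = 0.0906 by edgeR), and 0 members passed by edgeR and 1 by DESeq2 (0.284% of all genes called by edgeR, 0.148% higher and 0.136% lower). At an unadjusted p under 0.05 there were 4 ER members and 1 ATF4 member of the 40, where 10.4% of all genes had such a p. Herpud1 had 0.46 against ect (adjusted p = 0.126 by edgeR) and 0.45 against c30 (adjusted p = 0.145 by edgeR). The call for Xbp1 was lost without either MC38 knockdown library, without either ect library and without B16 knockdown replicate 2, with log2 differences of 0.58 to 0.71 over the 12 alternatives run. Without B16 wild-type replicate 1, 9 members passed against either MC38 form, as did 1170 genes in all against ect and 1096 against c30. Without B16 wild-type replicate 2, 4 members and 426 genes passed against ect, and 3 members and 375 genes against c30.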

How the data were processed

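Messenger RNA libraries were made from total RNA with a standard kit and read paired-end on an Illumina HiSeq, per the labels' protocols. The deposited table holds raw counts per gene and library, as whole numbers with differing totals. The submitters' processing notes name the build GRCm39 and, with no order, DESeq2, featureCounts, HTSeq, HISAT2 2.0.5 and Trimmomatic. The annotation release, the strand setting and the handling of reads with several matches are not given in the sources used here. Titles put the libraries into 5 groups of 2.

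Symbols were matched by Ensembl identifier. In R 4.3.3, edgeR 4.0.16 was run with its default filter on low counts by group, TMM scaling and the robust quasi-likelihood test, 2-sided. A gene was called at a Benjamini-Hochberg adjusted p under 0.05 over all genes tested. The MC38 comparisons shared a fit of 6 libraries, B16 used 4, and comparisons across lines used 10. SEs come from the model. Values per library are CPM of the library total. The lowest count of a member was 25, and 3 counts were at most 0.264 CPM; such floors cover counting error only. The test was tried on simulated counts with 200 changed genes and the same dispersion for every gene. The differences of effects were not simulated, and the outcome of the trial is not given here. Alternatives were RLE size factors, no filter, DESeq2 1.42.0, a replicate block, leaving out each library, and other libraries in the fit.

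In each comparison the called members with the smallest adjusted p, up to 6 per class, have the value of every library, and up to 3 called genes of each other list are named. Members named without passing, other than the sensors, Hspa5, Xbp1, Atf4, Ddit3 and Asns, were chosen after their values were seen. The members and lists were chosen with earlier results of these data known. Figures used matplotlib 3.10.9.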

Additional observations from a re-analysis of the deposited data

Results flagged for a closer look

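For Xbp1 the difference between wild type and knockdown in B16 was 0.65 higher on the log2 scale than the difference between ect and knockdown in MC38 (adjusted p = 0.0137 by edgeR, in a test of the difference itself). The call was lost under 5 of 12 alternatives, with an adjusted p of up to 0.112, and against c30 the difference did not pass (adjusted p = 0.0906). Sdc1 itself was not higher with ect than in the MC38 knockdown (log2 fold change -0.17, not called). Sdc1 differed in the same test, by -1.22 against the c30 effect and by 0.81 against the ect effect. The forms and the lines cannot be told apart in these differences.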

How the results depend on the processing

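Directions of called members did not reverse under any alternative run, and RLE size factors changed no count of called members. With DESeq2, 4 members and 513 genes were called with c30, and 7 members and 600 genes with ect. It called 0 members and 19 genes between c30 and ect, and 0 members and 11 genes in B16. By DESeq2 the differences of effects gave 1 member and 77 genes against c30, and 2 members and 101 genes against ect. With all 10 libraries in 1 fit, c30 gave 3 members and 254 genes, ect 4 and 249, c30 against ect 8 genes, and B16 27 genes. Without the filter, B16 gave 42 genes, and the differences of effects gave 2 members and 159 genes against c30 and 2 members and 189 genes against ect.

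Leaving out 1 library gave 4 to 6 members and 464 to 992 genes with c30, and 7 to 9 members and 776 to 984 genes with ect. It gave 18 to 44 genes between c30 and ect, and 0 to 7 members and 3 to 1295 genes in B16. The differences of effects ranged from 0 to 9 members and 13 to 1096 genes against c30, and from 0 to 9 members and 13 to 1170 genes against ect. The cause of these shifts was not tested; fewer libraries were fitted. Between the lines the main fit gave 30 members and 11504 genes. Leaving out 1 library gave no more members and fewer genes, and a fit of only the 4 libraries compared gave 35 members and 11557 genes.

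No pairing of the libraries by replicate number was seen over the genes fitted. Deviations of libraries with the same number correlated at -0.051 to 0.0169, which could miss a pairing in a part of the genes. With replicate number as a block, 8 members were called with c30 (1189 genes in all) and 10 with ect (1252 genes in all). In the same setting 0 members were called in B16 (15 genes in all) and 30 between the lines (11373 genes in all). With 2 libraries per group, small differences may go undetected.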
